A study of Homo sapiens with 6 samples.

Results

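Glycolysis, lactate and pentose phosphate genes were followed through the knockdown of CUEDC1 in T47D cells, a human breast ductal carcinoma line that expresses the oestrogen receptor. The 40 genes were chosen by name, from glucose transporters to the pentose phosphate enzymes, with earlier results of these data known. All of them are among the 17758 genes of the deposited table. Poly(A)-selected RNA was sequenced from 3 libraries of cells with a lentiviral non-targeting short hairpin RNA (shNC) and 3 libraries of cells with lentiviral short hairpin RNA against CUEDC1 (shCUEDC1). All 6 came from the same line, grown in RPMI 1640 medium with fetal bovine serum. Each group's libraries are called biological replicates in the series, with no word on separate infections, so every p-value rests on the spread among these libraries, which may be technical. How many hairpins were used is not stated either, so loss of CUEDC1 and other effects of a hairpin cannot be told apart. Among genes of glucose metabolism the series singles out SLC2A1, LDHA and HK2, and its question is whether CUEDC1 acts on glycolysis by way of SLC2A1.

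Glucose enters the cell through transporters of the SLC2A family and is trapped as glucose 6-phosphate by hexokinase. Glycolysis then splits it into trioses and oxidises these to pyruvate, which is either reduced to lactate by lactate dehydrogenase and exported by monocarboxylate transporters, or oxidised in the mitochondrion by pyruvate dehydrogenase, an enzyme held in check by the pyruvate dehydrogenase kinases. The pentose phosphate pathway branches off at glucose 6-phosphate and yields NADPH and ribose. Most steps are served by several isozymes from separate genes, which differ in kinetics and regulation.

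Estimated reads per library ranged from 18924327 in shNC 3 to 19731609 in shNC 2. The target, CUEDC1, was at 93.3 to 109.6 CPM (read counts scaled to a common library size and normalised by TMM) in shNC and at 31.4 to 33.8 CPM in shCUEDC1, a log2 change of -1.68 (edgeR quasi-likelihood adjusted p = 9.27e-06). CACNG4, the calcium channel subunit that the series places downstream, was at 141.1 to 155.2 CPM in shNC and 102.8 to 105.0 CPM in shCUEDC1. Markers of the luminal epithelium were high in all libraries, with 8 of 8 found and a summed level of 8220 to 10400 CPM in shNC and 10300 to 10500 CPM in shCUEDC1. The summed level of 4 leukocyte markers was at most 6.12 CPM, and CD3E was at 0 in 5 libraries. The 4 fibroblast markers summed to 25.1 to 31.2 CPM in shNC and to 36.4 to 46.0 CPM in shCUEDC1, mostly from COL1A1, and their part in the results was not tested. The library shNC 3 stood apart from its group. Over genes of at least 10 CPM, the SD of the log2 difference was 0.107 between shNC 1 and 2, but 0.236 and 0.256 between each of them and shNC 3. Between shNC 1 or 2 and the shCUEDC1 libraries it was 0.231 to 0.239. So shNC 3 differed from shNC 1 and 2 about as much as the knockdown libraries did. Results are therefore given with and without shNC 3 where it matters.

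Several of these genes are textbook targets of hypoxia-inducible factor, whose response element often has the core ACGTG. Only this form was searched, so other forms of the element are neither counted nor marked below. The RefSeq table (GRCh38.p14) gave 66 promoter windows for 37 of the 40 genes, the others being SLC2A3, SLC16A1 and PFKFB2. The 250 bases before each RefSeq start were searched for ACGTG on both strands, where the palindrome CACGTG counts as a pair of overlapping matches. These starts differ from the GENCODE gene bounds given further below. The stretch of PDK3 spans its GENCODE gene start, and the other stretches shown lie inside the GENCODE bounds of their genes. It was found in 34.8% of the members' windows, against 18.5% of the 35116 windows of all genes. By gene, 20 of the 37 members had it in at least 1 window (54.1%), against 28.2% of the 11118 tested genes with a window. The members were chosen by name and include such textbook targets, so these shares are no test. The count by gene was also not adjusted for the number of windows per gene. The stretches below are 61 bases each, written 5′ to 3′ on the strand of the gene, with ACGTG or its complement in capitals. They are shown because the genes that carry these letters include ones that fell (ALDOC, GAPDH, GPI), one that rose (SLC2A10) and ones that did not pass the test (PDK3, LDHA, PGK1).
ALDOC, chr17:28576896-28576956, minus strand: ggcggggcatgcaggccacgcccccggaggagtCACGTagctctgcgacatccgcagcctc
GAPDH, chr12:6535156-6535216, plus strand: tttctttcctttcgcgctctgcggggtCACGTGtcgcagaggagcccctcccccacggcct
GPI, chr19:34364802-34364862, plus strand: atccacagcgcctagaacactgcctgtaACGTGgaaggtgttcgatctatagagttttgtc
SLC2A10, chr20:46709548-46709608, plus strand: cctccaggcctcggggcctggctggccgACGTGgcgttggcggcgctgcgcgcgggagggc
PDK3, chrX:24465197-24465257, plus strand: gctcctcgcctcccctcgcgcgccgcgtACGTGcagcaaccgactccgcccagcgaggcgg
LDHA, chr11:18394462-18394522, plus strand: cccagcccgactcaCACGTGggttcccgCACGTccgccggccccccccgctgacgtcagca
PGK1, chrX:78104018-78104078, plus strand: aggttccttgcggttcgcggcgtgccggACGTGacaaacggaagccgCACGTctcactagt
Of the 7 members that changed, 6 had ACGTG in at least 1 window, as did 14 of the 30 others with a window. TKT, which fell, had no match in its window, and PFKM, which rose, had a match in 1 of its 7 windows. A match is a description of the letters and does not show that a factor binds there.

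Of the 40 genes, 38 passed the filter on low counts. Among these 38, 2 rose and 5 fell (edgeR quasi-likelihood, Benjamini-Hochberg adjusted p below 0.05 over all 13824 genes tested). The 7 called genes are 18.4% of the tested members, against 9.96% of all genes tested (5.19% higher and 4.77% lower). Because the members were chosen with earlier results of these data known, the difference between these shares is no test of the pathway. In bulk RNA such as this, fewer cells that express a gene and less RNA per cell cannot be told apart. PFKM and SLC2A10 rose, and ALDOC, PDK1, TKT, GPI and GAPDH fell. The changes were small: 1 member, ALDOC, differed by more than 1.5-fold. The median log2 difference of the tested members was -0.06, against -0.004 for all genes, and 63.2% of members lay below 0, against 50.9% of all genes. For 13 of the 38 the groups were apart without overlap (34.2%, against 31.3% of all genes tested), 5 with shCUEDC1 higher and 8 with shCUEDC1 lower. So the share of members whose groups separate was near that of all genes.

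**Figure D1:**
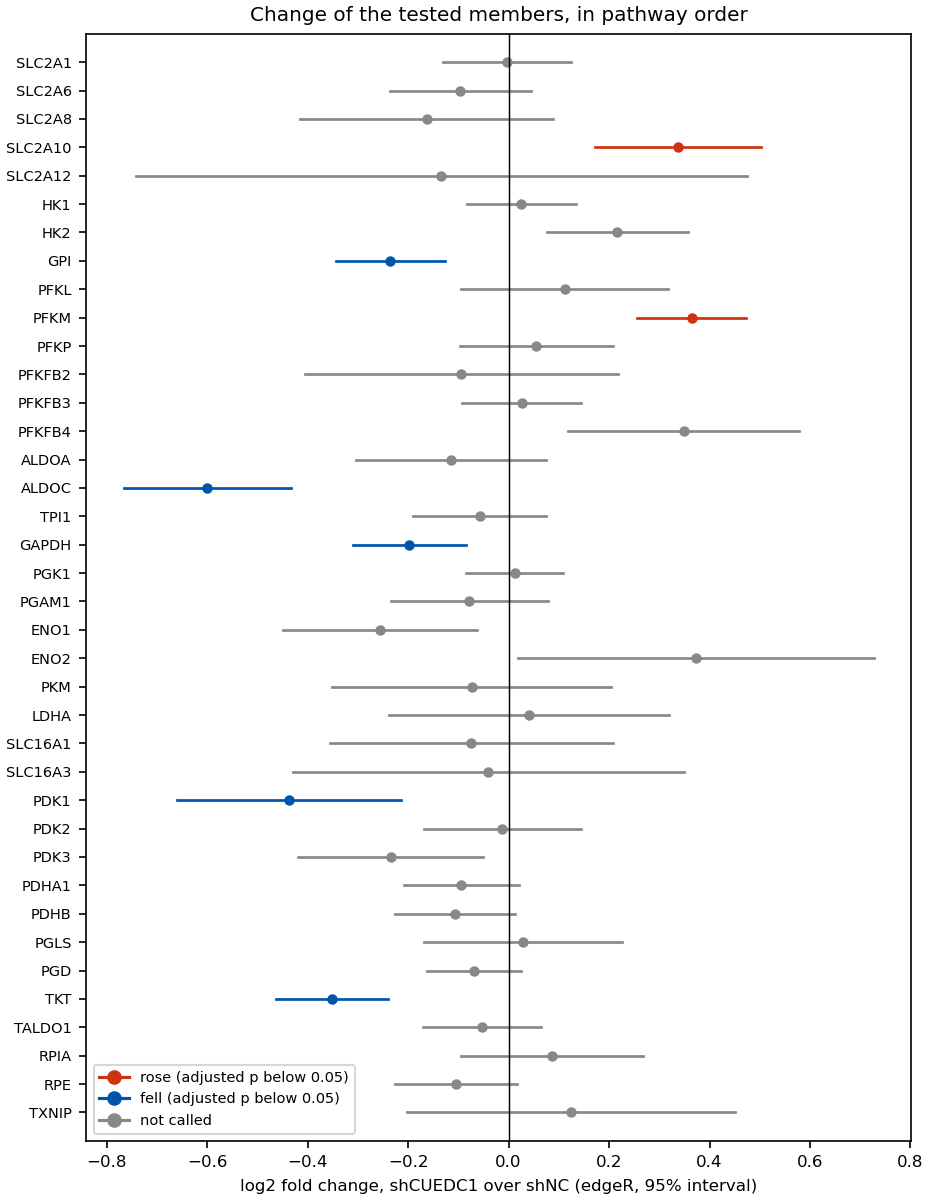
Log2 fold change of shCUEDC1 over shNC with its 95% interval (x axis) for the 38 tested genes in pathway order (y axis), red where the gene rose, blue where it fell and grey where it was not called. PFKM and SLC2A10 lie to the right of 0, and ALDOC, PDK1, TKT, GPI and GAPDH to the left, with ALDOC the farthest at -0.60.

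Glucose transporters came first in the pathway. SLC2A1 (GLUT1, Entrez 6513, chromosome 1 from 42925375 to 42959176 on the minus strand, GENCODE v29 on GRCh38), the main basal glucose transporter of most cells, had 76.7, 75.5 and 69.9 CPM in shNC and, for libraries 1 to 3 in order here and below, 71.7, 76.0 and 74.0 CPM in shCUEDC1. The groups overlapped, and the 95% interval of its log2 difference ran from -0.13 to 0.12 (edgeR adjusted p = 0.98). SLC2A10 (GLUT10, Entrez 81031, chromosome 20 from 46709487 to 46736347, plus strand) had 59.4, 67.6 and 55.6 CPM in shNC and 73.9, 78.8 and 78.1 CPM in shCUEDC1. Every shCUEDC1 library lay above every shNC library, and SLC2A10 rose by 0.34 on the log2 scale (SE 0.0743, edgeR adjusted p = 0.02). The call of SLC2A10 was lost without shNC 1 or without any 1 shCUEDC1 library, with an edgeR adjusted p of up to 0.104.

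The make-up of the transporters by TPM, a unit that corrects for gene length so that genes can be compared, was led by SLC2A1 and SLC2A6. SLC2A1 held 33.9% ± 1.3 of their summed TPM in shNC and 32.8% ± 0.175 in shCUEDC1 (SD, n = 3 each). SLC2A6 (GLUT6), which sits in intracellular membranes, held 31.8% ± 0.532 and 29.04% ± 0.409, and its groups did not overlap. SLC2A10 held 22.3% ± 0.852 in shNC and 27.4% ± 0.354 in shCUEDC1, a difference of 5.11 percentage points. The smallest p that an exact permutation test of 3 against 3 libraries allows is 0.1, and the shares of SLC2A6, SLC2A8 and SLC2A10 reached it. SLC2A8 (GLUT8) held 11.5% ± 0.695 in shNC and 10.3% ± 0.324 in shCUEDC1, without overlap. SLC2A12 (GLUT12) was at 0.47 to 0.71 TPM in shNC and 0.46 to 0.65 TPM in shCUEDC1. SLC2A3 (GLUT3), the neuronal high-affinity transporter, had 3.80 to 5.42 estimated reads in shNC and 5.46 to 9.41 in shCUEDC1, too few to be tested. The summed TPM of the 6 transporters was 135.6 ± 7.24 in shNC and 137.5 ± 3.52 in shCUEDC1 (SD, n = 3 each).

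Hexokinase was mostly hexokinase 1, with HK1 at 5.23 times the TPM of HK2 over all libraries. HK2 (Entrez 3099, chromosome 2 from 74833981 to 74893359, plus strand), the inducible hexokinase of many tumours, had 51.2, 49.5 and 55.3 CPM in shNC and 58.1, 60.7 and 62.4 CPM in shCUEDC1. All shCUEDC1 libraries were above all shNC libraries, but HK2 did not pass the test with all 6 libraries (log2 difference 0.22, edgeR adjusted p = 0.0574). Its share of hexokinase TPM was 15.1, 14.4 and 16.0% in shNC and 16.2, 16.6 and 18.1% in shCUEDC1. The shares did not overlap, with the nearest pair being shNC 3 and shCUEDC1 1 (exact permutation p = 0.1). HK1 differed by 0.02 on the log2 scale, with a 95% interval from -0.08 to 0.13.

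Glucose-6-phosphate isomerase, encoded by GPI (Entrez 2821, chromosome 19 from 34359480 to 34402413, plus strand), converts glucose 6-phosphate to fructose 6-phosphate. GPI had 189.2, 185.4 and 176.0 CPM in shNC and 155.8, 160.0 and 151.8 CPM in shCUEDC1. The groups did not overlap, and GPI fell by 15.1% (log2 change -0.24, SE 0.0484, edgeR adjusted p = 0.0149). The call of GPI was lost without shNC 1 or without any 1 shCUEDC1 library, with an edgeR adjusted p of up to 0.084. It was also lost in another unit. By TPM, GPI had 123.6, 122.9 and 114.0 in shNC and 114.0, 109.4 and 100.9 in shCUEDC1, so that shNC 3 and shCUEDC1 1 were nearly equal, and limma-trend gave an adjusted p of 0.184 on log2(FPKM + 0.5) and 0.183 on log2(FPKM + 0.1).

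Phosphofructokinase, the committing step of glycolysis, is built from liver (PFKL), muscle (PFKM) and platelet (PFKP) subunits. PFKM (Entrez 5213, chromosome 12 from 48105139 to 48146404, plus strand) had 100.4, 99.3 and 94.0 CPM in shNC and 128.2, 124.8 and 125.1 CPM in shCUEDC1. The libraries of a group lay close together and the groups far apart, and PFKM rose by 28.7% (log2 change 0.36, 95% interval 0.26 to 0.47, edgeR adjusted p = 0.002). It stayed called when any 1 library was left out (edgeR adjusted p of at most 0.0204) and in the 8 other settings tried. PFKL differed by 0.11 and PFKP by 0.06 on the log2 scale, with edgeR adjusted p of 0.5 and 0.672. The share of PFKM in the summed TPM of the 3 subunits was 27.0, 26.2 and 29.02% in shNC and 32.6, 30.8 and 31.4% in shCUEDC1, and that of PFKP was 39.7% ± 0.615 and 36.5% ± 1.13 (SD, n = 3 each). The shares of PFKM and PFKP did not overlap between groups, and PFKP remained the most abundant subunit by TPM in each group.

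The PFKFB enzymes make and break fructose 2,6-bisphosphate, a potent activator of phosphofructokinase. PFKFB3, the form with the highest kinase activity, made up 83.2% ± 2.11 of their TPM in shNC and 82.6% ± 0.275 in shCUEDC1. Its log2 difference was 0.03, with a 95% interval from -0.09 to 0.14. PFKFB4 had 14.9, 19.5 and 16.4 CPM in shNC and 21.1, 22.2 and 21.4 CPM in shCUEDC1. Its groups did not overlap, yet it did not pass the test (log2 difference 0.35, edgeR adjusted p = 0.0611). PFKFB2 had 50.5, 47.8 and 71.0 CPM in shNC and 52.0 to 53.5 CPM in shCUEDC1, and only shNC 3 stood out. With shNC 3 left out, the difference of PFKFB2 was 0.11 rather than -0.09.

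**Figure D2:**
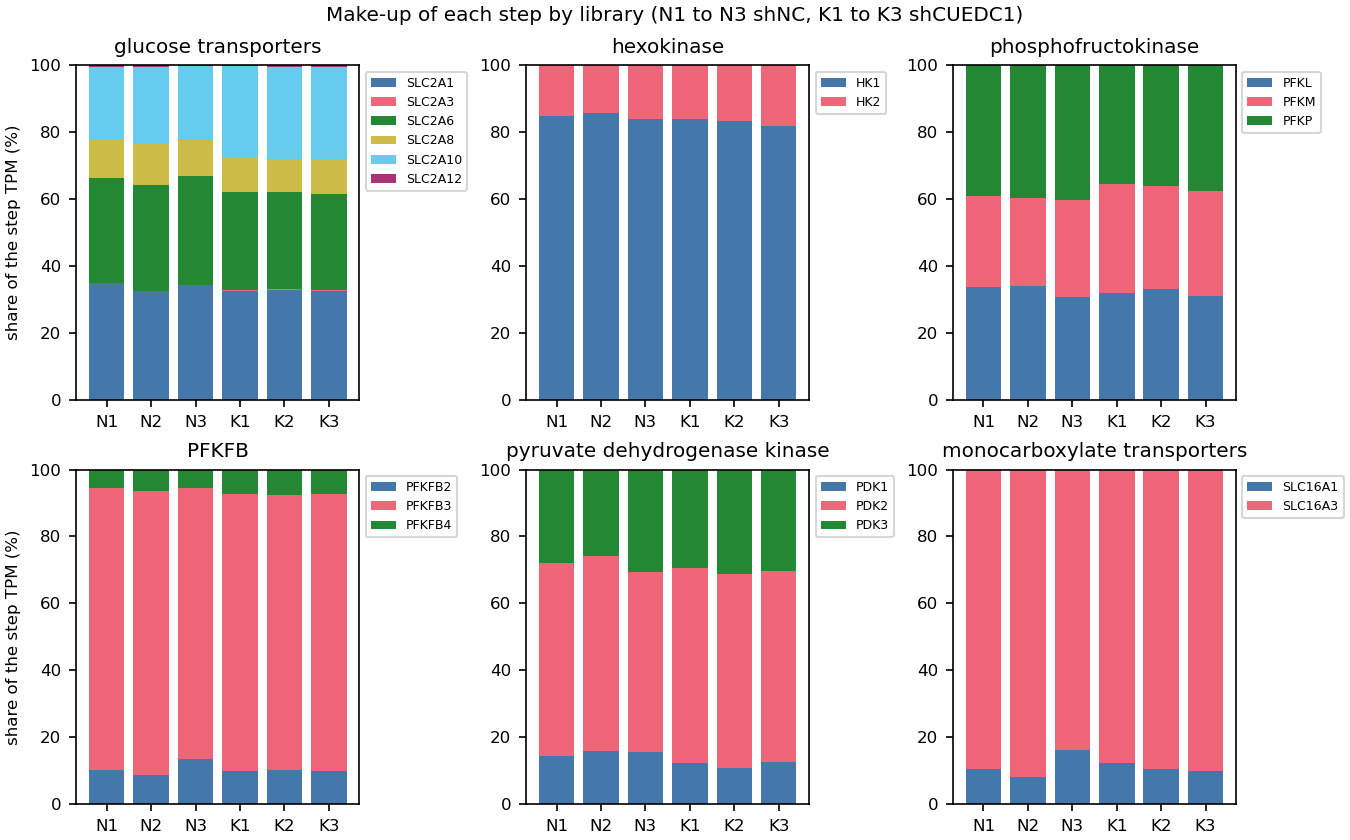
Share of each gene in the summed TPM of its step (y axis, percent) in each library (x axis, N1 to N3 for shNC and K1 to K3 for shCUEDC1), for 6 steps with more than 1 gene. SLC2A10 went from 22.3% to 27.4% of transporter TPM and PFKM from 27.4% to 31.6% of phosphofructokinase TPM, while PFKFB3, HK1 and SLC16A3 held over 80% of their steps in every library.

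The shares were compared for 27 genes in 10 steps, and for 13 of them the groups did not overlap. With Benjamini-Hochberg adjustment over the 27 exact permutation tests no share passed, since the smallest exact p is 0.1, and the smallest adjusted value was 0.208. The shares within a step are not independent of each other.

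Aldolase cleaves fructose 1,6-bisphosphate, and in these cells it was almost all aldolase A. ALDOC (Entrez 230, chromosome 17 from 28573115 to 28577264, minus strand), the form known from brain, had 34.8, 35.1 and 39.2 CPM in shNC and 23.4, 25.2 and 23.4 CPM in shCUEDC1. It had the largest change of any tested member, a fall of 34.0% (log2 change -0.60, 95% interval -0.77 to -0.43, edgeR adjusted p = 0.00145). ALDOC stayed called when any 1 library was left out, with an edgeR adjusted p of at most 0.0181. By TPM, ALDOC held 2.885% ± 0.553 of aldolase in shNC and 2.05% ± 0.114 in shCUEDC1 (SD, n = 3 each). ALDOA had 1165, 1279 and 987.1 CPM in shNC and 1017, 1057 and 1095 CPM in shCUEDC1, so that shNC 3 was the lowest of the 6 libraries and the groups overlapped (edgeR adjusted p = 0.446).

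GAPDH was the most abundant of the 40 genes by TPM. GAPDH (Entrez 2597, chromosome 12 from 6533927 to 6538374, plus strand), which oxidises glyceraldehyde 3-phosphate and is often used as a reference gene, had 2238, 2264 and 2103 TPM in shNC and 1901, 1883 and 1872 TPM in shCUEDC1. In CPM the values were 1351, 1364 and 1230 in shNC and 1139, 1138 and 1164 in shCUEDC1. The groups did not overlap on either scale, and GAPDH fell by 12.8% (log2 change -0.20, 95% interval -0.31 to -0.08, edgeR adjusted p = 0.0359). This call was lost when any 1 library other than shNC 3 was left out, with an edgeR adjusted p of up to 0.161. GENCODE lists 62 pseudogenes of GAPDH by name, and how reads that match them were counted is not stated. TPI1, triosephosphate isomerase, and PGK1, phosphoglycerate kinase, differed by -0.06 and 0.01 on the log2 scale. The interval of PGK1 ran from -0.08 to 0.11.

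From phosphoglycerate mutase to pyruvate kinase, no tested gene was called by edgeR with all 6 libraries. ENO1, the main enolase, had 1442, 1330 and 1102 CPM in shNC and 1104, 1090 and 1051 CPM in shCUEDC1. The library shNC 3 lay among the shCUEDC1 libraries and well below shNC 1 and 2 (log2 difference -0.26, edgeR adjusted p = 0.0976). DESeq2 called ENO1, with an adjusted p of 0.0353. ENO2, the neuronal enolase, had 4.00, 4.23 and 4.88 CPM in shNC and 6.63, 5.22 and 5.13 CPM in shCUEDC1. The groups of ENO2 did not overlap, but they were separated by little (log2 difference 0.37, edgeR adjusted p = 0.177). ENO1 held over 99% of enolase TPM in every library. PGAM1, phosphoglycerate mutase, had 783.9, 786.7 and 650.8 CPM in shNC and 696.0 to 708.1 CPM in shCUEDC1. PKM, pyruvate kinase, had 1325, 1369 and 963.9 CPM in shNC and 1130 to 1179 CPM in shCUEDC1. For PGAM1 and PKM the shCUEDC1 libraries lay between shNC 3 and the other two. The deposited table gives one value for PKM, so its M1 and M2 splice forms were not separated.

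**Figure D3:**
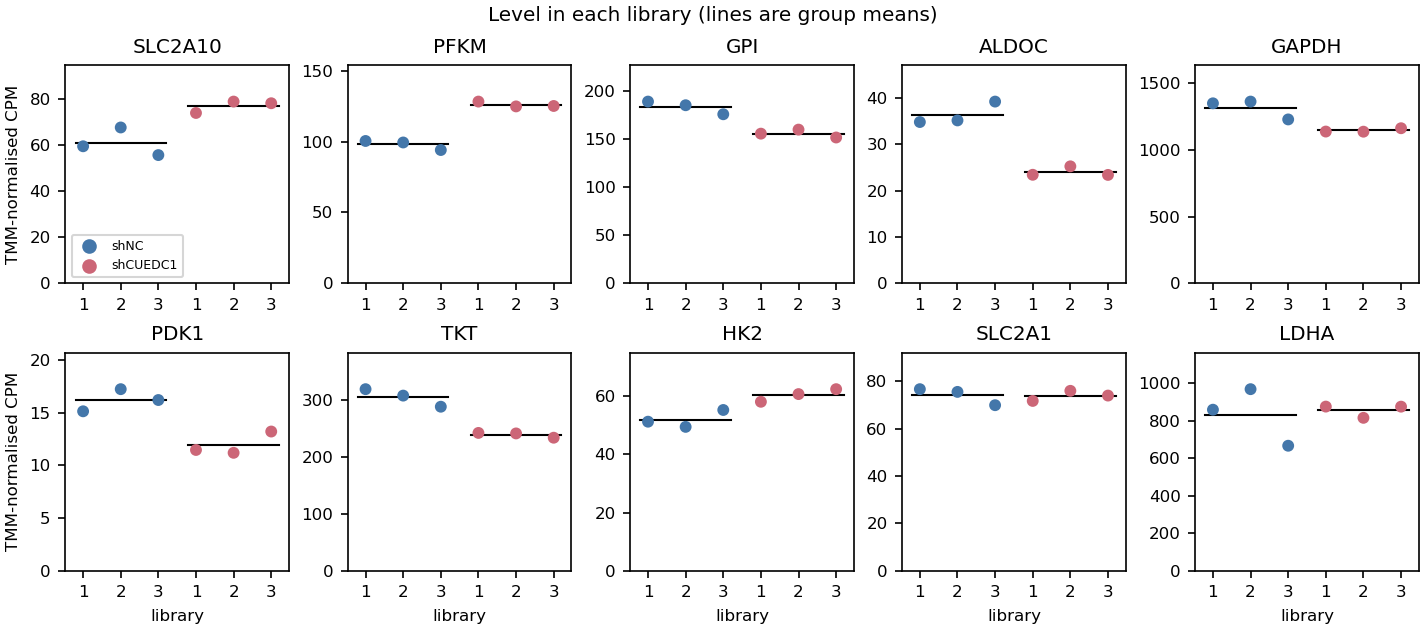
TMM-normalised CPM (y axis, from 0) in each library (x axis) for the 7 genes that rose or fell and for HK2, SLC2A1 and LDHA, blue for shNC and red for shCUEDC1, with lines at the group means. The groups are apart for the first 8 genes and overlap for SLC2A1 and LDHA, where shNC 3 is the lowest library.

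Lactate dehydrogenase was nearly all LDHA (Entrez 3939, chromosome 11 from 18394388 to 18408425, plus strand), the subunit that favours the reduction of pyruvate to lactate. LDHA had 860.0, 969.6 and 667.7 CPM in shNC and 876.6, 816.6 and 876.3 CPM in shCUEDC1. The shCUEDC1 libraries lay within the range of shNC, and the 95% interval of the log2 difference ran from -0.24 to 0.32 (edgeR adjusted p = 0.875). LDHB, the subunit of oxidative tissues, had 31, 18.0 and 3 estimated reads in shNC and 4, 7 and 2 in shCUEDC1. It did not pass the count filter with all 6 libraries, and shNC 3 was as low as the knockdown libraries. Its share of lactate dehydrogenase TPM was between 0.01996% and 0.3145%.

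Of the transcripts for the lactate transporters, SLC16A3 (MCT4), known from highly glycolytic cells, held 88.4% ± 4.22 of the summed TPM of both transporters in shNC and 89.2% ± 1.21 in shCUEDC1 (SD, n = 3 each). SLC16A3 had 52.7, 65.8 and 38.8 CPM in shNC and 48.3, 52.9 and 51.8 CPM in shCUEDC1, all within the shNC range. SLC16A1 (MCT1) had 9.63 to 12.8 CPM in shNC and 9.64 to 11.3 CPM in shCUEDC1. Their 95% intervals, -0.43 to 0.35 and -0.36 to 0.21, leave room for differences of some size in each direction.

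The pyruvate dehydrogenase kinases phosphorylate and inactivate pyruvate dehydrogenase. PDK1 (Entrez 5163, chromosome 2 from 172555373 to 172608669, plus strand), the kinase known as a hypoxia target, had 15.1, 17.2 and 16.2 CPM in shNC and 11.5, 11.2 and 13.2 CPM in shCUEDC1. The groups did not overlap, and PDK1 fell by 26.1% (log2 change -0.44, SE 0.1, edgeR adjusted p = 0.0235). This call was lost without shNC 2, shCUEDC1 1 or shCUEDC1 2 (edgeR adjusted p of up to 0.123) and on log2(FPKM + 0.5) with limma-trend. PDK1 held 15.2% ± 0.871 of kinase TPM in shNC and 11.9% ± 0.913 in shCUEDC1 (SD, n = 3 each). PDK2, the most abundant of the 3, held 56.6% ± 2.48 and 57.9% ± 0.499. PDHA1 and PDHB, the subunits of the E1 component that the kinases act on, differed by -0.09 and -0.11 on the log2 scale (edgeR adjusted p of 0.289 and 0.254). Their summed TPM was 299.7 to 323.8 in shNC and 277.0 to 288.0 in shCUEDC1, without overlap (exact permutation p = 0.1).

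PDK3 gave opposite directions by count and by TPM. It had 38.8, 39.3 and 46.2 CPM in shNC and 33.2, 35.7 and 36.6 CPM in shCUEDC1, lower in every shCUEDC1 library but not called (log2 difference -0.23, edgeR adjusted p = 0.106). By TPM it had 14.6, 14.6 and 16.7 in shNC and 15.6, 16.7 and 15.6 in shCUEDC1, a log2 ratio of the means of 0.06. The share of PDK3 in kinase TPM was 28.2% in shNC and 30.3% in shCUEDC1, while by CPM the same difference was -2.09 percentage points.

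Counts and FPKM together give the length that the authors' quantification assigned to a gene in each library, as the count divided by the FPKM and by the library total. This implied length, a measure chosen after the data were seen, changes when reads are assigned to longer or shorter transcripts of one gene. It was computed for 10538 genes of at least 2 FPKM in every library. For PDK3 it was 5.46, 5.50 and 5.85 kb in shNC and 4.41, 4.37 and 4.68 kb in shCUEDC1. The groups of PDK3 lay well apart, with a log2 shift of -0.32. For GPI it was 3.14, 3.09 and 3.26 kb in shNC and 2.82, 2.99 and 2.99 kb in shCUEDC1, a log2 shift of -0.11 without overlap. GENCODE lists 13 coding transcripts of GPI between 0.529 and 4.34 kb. Its 2 coding transcripts of PDK3 are at most 1.92 kb, below the implied length in every library. The transcripts behind these lengths were not identified. A shift of more than 0.1 without overlap was seen for 2 of 36 members (5.56%) and for 0.674% of all genes with a value. The median absolute log2 shift was 0.00261 for members and 0.00333 for all genes with a value. PDK1 had 4.204, 3.91 and 4.08 kb in shNC and 3.64, 3.96 and 4.07 kb in shCUEDC1, which overlap. For GAPDH, 1.24 kb in all libraries, and for PFKM, 2.98 to 3.01 kb, the length was nearly level, and the log2 change by TPM, -0.22 for GAPDH and 0.335 for PFKM, was close to that by count.

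**Figure D4:**
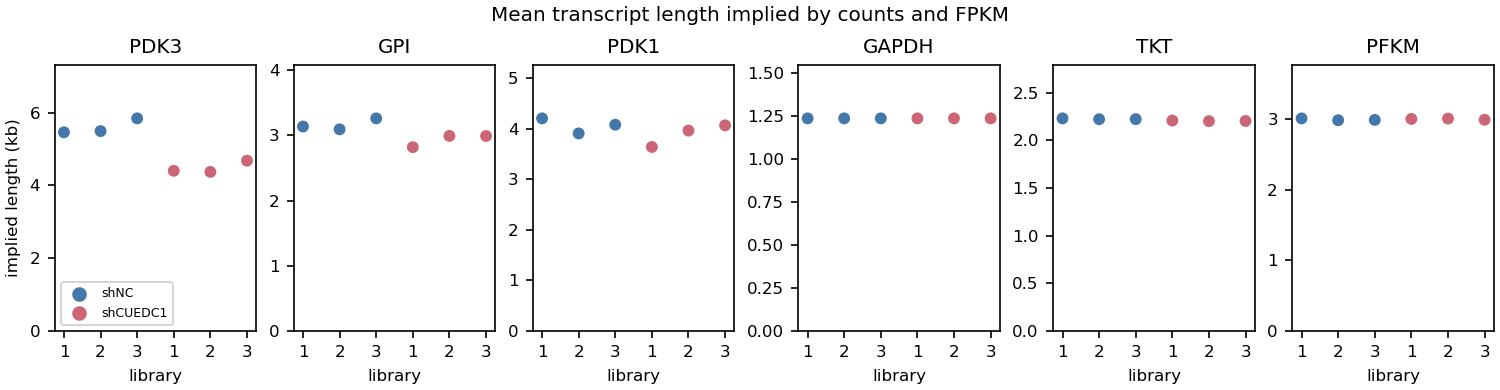
Implied transcript length in kb (y axis, from 0) in each library (x axis), blue for shNC and red for shCUEDC1, for 6 genes. PDK3 and GPI are shorter in all shCUEDC1 libraries, PDK1 overlaps between groups, and GAPDH, TKT and PFKM are level.

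In the pentose phosphate pathway, transketolase was the gene that fell. TKT (Entrez 7086, chromosome 3 from 53224707 to 53256052, minus strand), which moves carbon pairs between sugars in the non-oxidative branch and links it back to glycolysis, had 318.9, 307.6 and 288.1 CPM in shNC and 242.1, 241.2 and 233.7 CPM in shCUEDC1. The groups were far apart against their spread, and TKT fell by 21.6% (log2 change -0.35, 95% interval -0.46 to -0.24, edgeR adjusted p = 0.00256). It stayed called without any 1 library, with an edgeR adjusted p of at most 0.0261. PGD, the NADPH-yielding phosphogluconate dehydrogenase, had 393.8, 389.2 and 387.7 CPM in shNC and 363.9, 381.0 and 371.3 CPM in shCUEDC1, without overlap but not called (log2 difference -0.07, edgeR adjusted p = 0.345). TALDO1 (transaldolase), PGLS (the lactonase), RPIA (ribose-5-phosphate isomerase) and RPE (the epimerase) differed by between -0.10 and 0.09 on the log2 scale, and none was called. By TPM the order was PGD, TALDO1 and TKT, then PGLS, RPE and RPIA, in shNC as in shCUEDC1.

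TXNIP, an arrestin-like protein that is induced by glucose and lowers glucose uptake, had 261.4, 280.3 and 183.9 CPM in shNC and 267.3, 257.5 and 266.1 CPM in shCUEDC1. The 3 shCUEDC1 libraries lay within the shNC range, which shNC 3 set at its lower end. The log2 difference of TXNIP was 0.12 (95% interval -0.20 to 0.45, edgeR adjusted p = 0.647).

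How often shNC 3 was the lowest or highest library was counted for the members only. No share over all genes tested stands beside it, so the count does not show a trait particular to these genes. The library shNC 3 had the lowest CPM of the 6 for 16 of the 38 tested members and the highest for 4. Against the mean of shNC 1 and 2, on the log2(CPM + 0.5) scale, it was at -0.60 for SLC16A3, -0.56 for TXNIP, -0.48 for PKM, -0.45 for LDHA, -0.42 for SLC2A12, -0.36 for PFKL and -0.33 for ENO1. It was at 0.53 for PFKFB2 and 0.33 for SLC16A1. On the same scale the mean of the shCUEDC1 libraries stood at -0.21 for SLC16A3, -0.04 for TXNIP, -0.22 for PKM, -0.09 for LDHA and -0.36 for ENO1. For the 7 genes that changed, shNC 3 stood between -0.19 (SLC2A10) and 0.16 (ALDOC). The test favours genes with little spread within a group, so this range follows in part from the selection. Of the 8 luminal markers, KRT8 and KRT18 were also lowest in shNC 3, at 2120 and 1350 CPM. The other libraries had 3390 to 3540 and 1770 to 1880 CPM. KRT19, GATA3 and CDH1 were lowest there too, by less. ESR1 (128 CPM in shNC 3, 106 and 102 in shNC 1 and 2) and FOXA1 (437, against 397 and 434) were higher there than in shNC 1 and 2. EPCAM was level, at 276 CPM against 276 and 283. The part of these markers in this was not tested.

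Without shNC 3, 5 members rose and 12 fell among 39 tested (43.6%), where 28.1% of all genes tested were called by edgeR. The 7 genes called with all libraries were among these 17, and the limit from how the members were chosen holds here too. The other 10 were ALDOA, ENO1, ENO2, HK2, LDHB, PDHB, PFKFB4, PGAM1, PKM and SLC2A8, of which ENO2, HK2 and PFKFB4 were higher in shCUEDC1. In that fit ENO1 differed by -0.35 (edgeR adjusted p = 3.15e-08), PKM by -0.21 (4.52e-05), ALDOA by -0.21 (3.48e-04), PGAM1 by -0.16 (0.00119) and HK2 by 0.27 (3.36e-04). This fit was singled out because shNC 3 stood apart, and its only controls were shNC 1 and 2, which lay close together. Its p-values may therefore understate the spread between controls. The SE of ENO1 was 0.0396 there, against 0.0858 with all libraries. LDHB is counted among the 17 called and the 12 lower, but it passed the count filter here only through shNC 1 and 2, where it was high. Its log2 difference of -2.44 (SE 0.469), on the few reads given above, is therefore no evidence of a change. SLC2A1 (-0.04, edgeR adjusted p = 0.597) and LDHA (-0.09, edgeR adjusted p = 0.164) were not called there either. The sum of the 40 genes was 11639, 11892 and 10206 TPM in shNC and 10376, 10238 and 10070 TPM in shCUEDC1, so shNC 3 lay among the shCUEDC1 libraries (exact permutation p = 0.3). Of this sum, 72.2% came from GAPDH, ALDOA, ENO1, PKM, PGAM1 and LDHA.

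**Figure D5:**
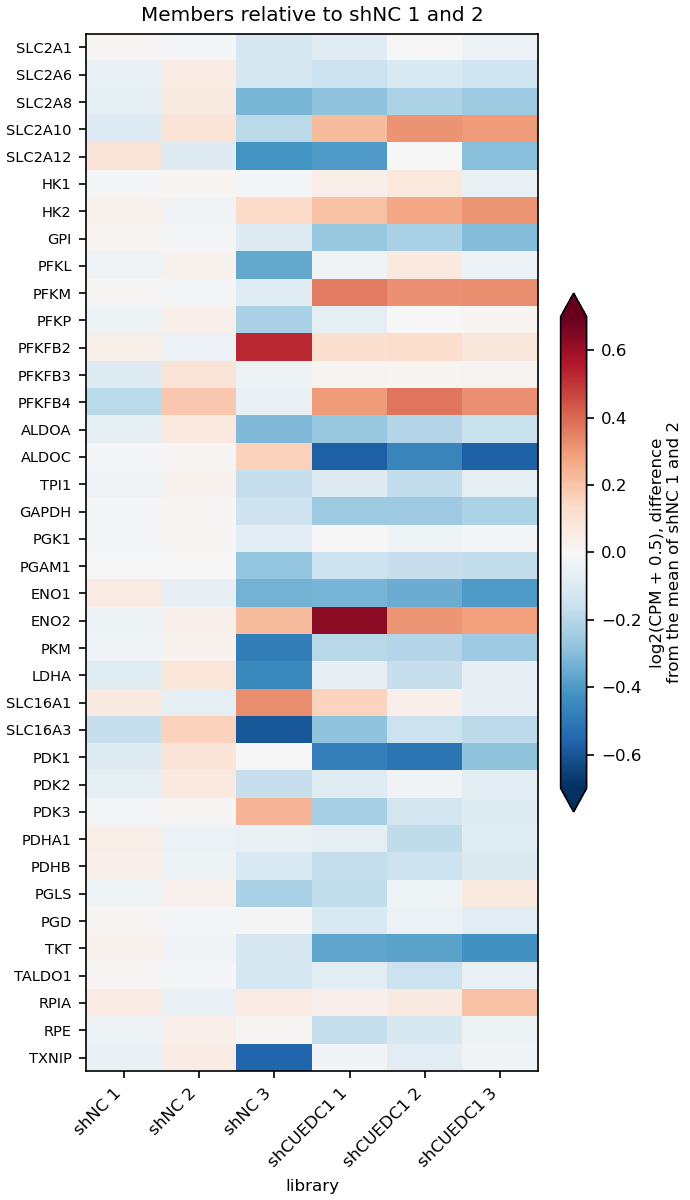
Log2(CPM + 0.5) of each tested gene (rows, in pathway order) in each library (columns) as the difference from the mean of shNC 1 and 2, red for higher and blue for lower. The column of shNC 3 is blue for PKM, LDHA, SLC16A3 and TXNIP and red for PFKFB2, and the shCUEDC1 columns are blue for ALDOC, PDK1 and TKT and red for PFKM.

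Other genes of glucose, pyruvate and lactate handling were taken from a list of 73 genes, also chosen with earlier results known. Of the 73, 71 were in the table and 58 were tested. Of these 58, 6 rose and 2 fell, beside 9.96% called among all genes tested, and their median log2 difference was -0.08. Without shNC 3 the balance turned over, with 8 of the 58 higher and 14 lower by edgeR, where 28.1% of all genes tested were called. MPC2, a subunit of the mitochondrial pyruvate carrier, had 96.8, 100.9 and 125.6 CPM in shNC and 152.6, 160.6 and 157.8 CPM in shCUEDC1. The groups did not overlap, with shNC 3 the nearest to the knockdown, and MPC2 rose by 0.54 on the log2 scale (SE 0.0890, edgeR adjusted p = 0.00564). Its partner MPC1 had 31.2, 34.1 and 31.4 CPM in shNC and 26.8 to 27.9 CPM in shCUEDC1, lower in every library and not called (log2 difference -0.24, edgeR adjusted p = 0.055). HCAR1, the cell surface receptor for lactate, rose from 15.6 ± 1.26 to 22.8 ± 2.17 CPM (SD, n = 3 each, log2 change 0.55, edgeR adjusted p = 0.00751). EMB, embigin, a chaperone of monocarboxylate transporters, rose by 0.58, with shNC 3 at 11.6 CPM and shNC 1 and 2 at 8.20 and 7.76 CPM. GPD1L, a glycerol-3-phosphate dehydrogenase-like enzyme, rose by 0.36, SLC2A13, a myo-inositol transporter, by 0.30 and MLXIP, a glucose-responsive transcription factor, by 0.29. TIGAR, a fructose bisphosphatase that favours the pentose phosphate pathway, fell from 14.45 ± 0.303 to 10.75 ± 0.643 CPM (SD, n = 3 each, log2 change -0.43, edgeR adjusted p = 0.0171). SLC5A1, the sodium-glucose cotransporter, fell by 1.04 at a level of 0.765 to 2.58 CPM. MPC2 and GPD1L stayed called when any 1 library was left out. The other 6 were less stable: EMB and MLXIP were called only without shNC 3 among the 6 fits that leave out 1 library, SLC2A13 and SLC5A1 in 2 of them, TIGAR in 3, and HCAR1 in all but the fit without shCUEDC1 2. The highest edgeR adjusted p over these fits was 0.052 for HCAR1, 0.0909 for TIGAR, 0.138 for MLXIP, 0.139 for SLC2A13, 0.143 for SLC5A1 and 0.154 for EMB. SLC5A1 was also not called by DESeq2 (adjusted p = 0.0637), and SLC5A1, TIGAR, EMB and MLXIP were not called by limma-trend on FPKM at either pseudocount.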

How the data were processed

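RNA was measured in 6 libraries, 3 shNC and 3 shCUEDC1, with 18924327 to 19731609 estimated reads each. The build, per the submitters' processing notes, was GRCh38.p13. For the aligner, the counter and strandedness, the entry is: not given in the sources used here. One table of genes was deposited. Per the file headers it holds read counts, which are fractional and so are estimated counts that the authors did not normalise. It also holds FPKM and TPM, which the authors scaled to gene length and library size. A further 14 columns were not used.

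Counts were rounded, genes kept by filterByExpr at a minimum count of 10, libraries normalised by TMM and compared with edgeR 4.0.16 (robust quasi-likelihood F test, R 4.3.3). Adjusted p-values are Benjamini-Hochberg over 13824 genes. Isozyme shares and summed levels used the deposited TPM and exact two-sided permutation tests. Alternatives were RLE size factors, no filter, at least 1 CPM in 3 libraries, DESeq2 1.42.0, limma 3.58.1 (voom, and trend on log2(FPKM + 0.5) and log2(FPKM + 0.1)), a replicate block and each library left out. The pipeline was tested on simulated data. Full statistics were given to called members, SLC2A1, LDHA and HK2, the highest member of each step by TPM, members whose groups did not overlap and up to 8 called genes of the other list. The members and lists were chosen with earlier results of these data known.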

Additional observations from a re-analysis of the deposited data

How the results depend on the processing

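PFKM, ALDOC and TKT were called in all 6 fits that leave out 1 library and in the 8 other settings. Leaving out 1 library gave 1 to 5 members higher and 2 to 12 lower, 2 to 8 of the other pathway genes higher and 0 to 14 lower, and 272 to 1996 of all genes higher and 196 to 1929 lower. The high end was without shNC 3 each time. The cause was not tested. With FPKM and limma-trend, 3 members were lower (GPI and PDK1 were not called) and 1 of the other genes was lower, at either pseudocount. PDK3 then differed by 0.067 and 0.070 on the log2 scale and PGK1 by -0.00500 and -0.00502. SLC2A1 differed by 0.0037 with no filter and by 0.0014 with DESeq2. RLE factors, a CPM filter and limma-voom changed no call of a member. DESeq2 added ENO1, and no filter added PFKFB4 (adjusted p = 0.0492 by edgeR).

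The following members were called in none of the settings, except PKM without shNC 3, and their log2 difference changed sign when 1 library was left out. The ranges were -0.039 to 0.0234 for SLC2A1, -0.305 to 0.0278 for SLC2A12, -0.000135 to 0.0639 for HK1, -0.0131 to 0.112 for PFKP, -0.200 to 0.109 for PFKFB2, -0.0132 to 0.0800 for PFKFB3, -0.00975 to 0.0298 for PGK1, -0.214 to 0.0181 for PKM, -0.0915 to 0.165 for LDHA, -0.159 to 0.0510 for SLC16A1, -0.212 to 0.157 for SLC16A3, -0.0618 to 0.0523 for PDK2, -0.0400 to 0.0916 for PGLS and -0.0356 to 0.244 for TXNIP.

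Replicate numbers are shared between the groups, but same-numbered libraries deviated together with correlations of only 0.00911, 0.0707 and 0.0267 over 10142 genes, and not every library correlated best with its own number. With the replicate number as a block, 2 members were higher and 4 lower (GAPDH was not called, edgeR adjusted p = 0.0692), 5 of the other genes were higher and 1 lower, and 1117 genes in all were called.

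With CPM in place of TPM, the difference in share was 6.01 percentage points for SLC2A10, 4.80 for PDK2 and -2.09 for PDK3, and the summed kinases differed by -0.157 on the log2 scale. Depth limits LDHB and SLC2A3, which have few reads.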
